A study of Mus musculus with 12 samples.

Results

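The imprinted Prader-Willi and Angelman domain lies on mouse chromosome 7 and was followed here through 8 genes chosen by symbol: Snrpn, Snurf, Snhg14, Ndn, Magel2, Mkrn3, Peg12 and Ube3a. Rows of the deposited expression table carrying these symbols numbered 7 of 32494, and Snurf was not analysed here. Levels are in CPM, the reads of a gene as normalized by the authors to the size of its library. Members averaging 1 CPM or more were tested, which 6 did and Peg12 did not.

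The samples were hypothalamus of 12 male mice, of which 7 were labelled WT and 5 cKO, and each library is named here by its group and the mouse number in its title. The titles of both groups also carry the word control, which the labels do not explain. All of the mice carried floxed Smc3 and received tamoxifen, with tissue taken 5 weeks later, and an age of 8 weeks stands in the labels with no step attached. The mice labelled cKO also carried Camk2a-cre/ERT2 (Cre+), a tamoxifen-activated recombinase under the Camk2a promoter, which is known for its use in excitatory neurons of the forebrain. The mice labelled WT lacked it (Cre-). Smc3 encodes a core subunit of the cohesin ring, and the study asked what its loss from neurons of adult mice does. Bulk hypothalamus also holds glia, vessels and neurons that do not use the Camk2a promoter.

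Smc3 went against the labels. It lay between 76.8 and 85.7 CPM in the libraries labelled WT and between 116 and 144 CPM in those labelled cKO, and limma put the log2 fold change at 0.67 ± 0.05 (SE) with an adjusted p-value of 3.06e-05. Directions below therefore refer to the libraries labelled cKO and not to a shown loss of Smc3. The libraries held 17.1 M to 24.0 M reads, apart from WT 1 with 68.7 M. Of the hypothalamus markers looked at, 10 of 12 were above 0 in every library, Rax was at 0 in 2 libraries and Nr5a1 in 1. Of the 11 that were tested 1 passed by limma, Sim1, which was higher in cKO (0.56, adjusted p-value 0.0206). Their summed level ran from 81.2 to 657 CPM in the WT libraries and from 165 to 756 CPM in the cKO libraries, a wide spread within each group.

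Imprinted genes are read from the allele of a single parent. In this domain the paternal allele gives Snrpn, Snurf, Snhg14, Ndn, Magel2, Mkrn3 and Peg12, while neurons take Ube3a from the maternal allele, because Snhg14 runs antisense into Ube3a and silences the paternal copy. Loss of the paternal products is known from Prader-Willi syndrome, with hyperphagia and hypothalamic hormone deficits, and loss of maternal UBE3A from Angelman syndrome. Reads were not assigned to alleles here, so each value is the sum of both.

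Snrpn and Snhg14, the members whose levels differed between the groups, share a start in the RefSeq annotation. RefSeq promoter windows (build GRCm38.p6) matched 8 of the 8 members by symbol and gave 9 distinct windows. The 250 bases before the start are printed for the 4 windows of Snrpn, since these show how the start shared with Snhg14 relates to the other Snrpn starts. CG dinucleotides, the sites of DNA methylation, are in capitals.
Snhg14 and Snrpn, shared start, chr7:60450178-60450427, minus strand: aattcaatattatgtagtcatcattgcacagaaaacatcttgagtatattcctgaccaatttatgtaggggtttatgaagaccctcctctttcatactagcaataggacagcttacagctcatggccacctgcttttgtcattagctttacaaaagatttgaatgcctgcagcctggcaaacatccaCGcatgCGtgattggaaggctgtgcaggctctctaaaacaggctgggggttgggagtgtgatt
Snrpn, upstream start, chr7:60140226-60140475, minus strand: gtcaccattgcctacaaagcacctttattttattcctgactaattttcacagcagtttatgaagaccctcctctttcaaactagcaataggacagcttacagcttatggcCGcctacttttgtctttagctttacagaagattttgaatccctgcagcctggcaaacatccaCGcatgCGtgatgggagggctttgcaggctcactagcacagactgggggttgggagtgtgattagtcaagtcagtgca
Snrpn, upstream start, chr7:60047979-60048228, minus strand: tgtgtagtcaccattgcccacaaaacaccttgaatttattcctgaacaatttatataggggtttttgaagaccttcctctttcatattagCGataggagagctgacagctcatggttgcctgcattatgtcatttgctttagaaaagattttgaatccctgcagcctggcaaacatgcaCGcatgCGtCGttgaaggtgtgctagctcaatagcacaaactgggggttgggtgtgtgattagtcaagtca
Snrpn and Snurf, shared start, chr7:60005200-60005449, minus strand: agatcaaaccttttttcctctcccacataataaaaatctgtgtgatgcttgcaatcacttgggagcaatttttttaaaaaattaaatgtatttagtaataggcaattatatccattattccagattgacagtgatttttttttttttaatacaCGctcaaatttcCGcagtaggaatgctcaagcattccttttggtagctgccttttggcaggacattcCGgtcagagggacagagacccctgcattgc
The 3 upstream windows were near copies of each other. In pairwise global alignments they were identical at 84.4% to 87.2% of 234 to 243 aligned bases, and they shared an unbroken run of 19 bases that no other of the 32817 windows held. The Snrpn and Snurf window aligned to them over only 136 to 149 bases.

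CG dinucleotides numbered 2 in the window shared by Snhg14 and Snrpn, 3 and 4 in the other upstream windows and 3 in the Snrpn and Snurf window, where the median over all windows was 6. The window of Ube3a held 24, a number reached by 12% of all windows. The windows of Ndn, Magel2, Peg12 and Mkrn3 held 5, 7, 8 and 10. Motifs were searched on both strands. GGGCGG, found in 32.7% of all windows, occurred in those of Magel2 (2 matches) and Ube3a (1 match). TGCGCA, found in 6.42%, occurred in that of Ndn, and GCCATNTT, found in 3.90%, in those of Ube3a and Mkrn3. None of these motifs was found in the 4 Snrpn windows. All windows end at the start, so CG dinucleotides and motifs past it were not counted. CACGCATGCG, the longest run common to the 3 upstream Snrpn windows and the Ndn window, was picked after the sequences had been seen and overlaps CG dinucleotides. It occurred in 92 of all windows (0.280%).

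Snhg14, the long noncoding RNA that hosts the Snord115 and Snord116 clusters and runs antisense to Ube3a, was lower in the libraries labelled cKO. In the WT libraries it was at 68.4 CPM (lowest, WT 7), 92.8 CPM (median) and 105 CPM (highest, WT 6). In the cKO libraries it was at 62.3 CPM in mouse 8, 63.6 in mouse 9, 66.8 in mouse 14, 73.5 in mouse 13 and 76.5 in mouse 12. So 6 of the 7 WT libraries lay above every cKO library, and WT 7 lay inside the cKO range. The means were 90.7 ± 11.5 CPM (SD, n = 7) and 68.5 ± 6.21 CPM (SD, n = 5), so that cKO stood at 0.755 of WT. By limma the log2 fold change was -0.39 ± 0.09 (SE) with an adjusted p-value of 0.0140. A two-sided exact permutation test gave 0.00884. Past the limma threshold of 0.05 were 2 of the 6 tested members, Snhg14 lower and Snrpn higher, with a median log2 fold change of -0.06 over the 6. The same threshold was passed by 14.1% of all 15359 tested genes, 7.6% lower (1168) and 6.54% higher (1004). Median centring turned that split to 1054 lower and 1377 higher, and the GC and length correction to 862 and 1318. In tissue of many cell types, fewer cells of a type and less RNA per cell cannot be told apart.

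Markers of neurons differed between the groups before adjustment. Their score, the mean of log2(CPM + 1) over 8 genes, ran from 8.79 to 8.96 in the WT libraries and from 8.92 to 9.09 in the cKO libraries (exact permutation p-value 0.0391, or 0.222 adjusted over 9 marker lists). Of these 8 genes 2 passed by limma, both higher, none was at 0 in all libraries, and their summed level was 4507 to 5185 CPM against 4865 to 5712 CPM. With the neuron score as a covariate the log2 fold change of Snhg14 was -0.31 and no longer past the threshold (limma adjusted p-value 0.0883). Of 13 markers of thalamus, the tissue above the hypothalamus, 4 passed by limma, all of them lower. Their summed level was 1659 to 2791 CPM in WT and 1384 to 1868 CPM in cKO. The thalamus score differed by -0.49 (exact permutation p-value 0.0492, or 0.222 adjusted over the 9 lists). Of 8 markers of the oligodendrocyte lineage 2 passed by limma, both higher, Olig2 (0.27, adjusted p-value 0.0399) and Pdgfra (0.14, 0.0476). The score over the 8 differed by only 0.12 (exact permutation p-value 0.542, or 0.543 adjusted over the 9 lists). With the thalamus score as a covariate the log2 fold change of Snhg14 was -0.51 (limma adjusted p-value 0.0126).

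Snrpn encodes SmN, a neuronal form of a core protein of the spliceosome, and it was higher in the libraries labelled cKO. In the WT libraries it was at 5.96 CPM (lowest, WT 15), 6.79 CPM (median) and 6.95 CPM (highest, WT 4). The cKO libraries were at 7.23 CPM in mouse 12, 7.68 in mouse 8, 7.75 in mouse 14, 8.28 in mouse 9 and 8.5 in mouse 13. The groups did not overlap, which held for 6.73% of tested genes, 3.52% with cKO higher and 3.2% with cKO lower. The means were 6.63 ± 0.356 CPM (SD, n = 7) and 7.89 ± 0.506 CPM (SD, n = 5), so that cKO stood at 1.19 of WT. By limma the log2 fold change was 0.22 ± 0.06 (SE) with an adjusted p-value of 0.0261. An exact permutation test gave 0.00126, the smallest value for 792 splits. Snrpn had 0.26 on the log2 scale and an FDR of 0.11 in the authors' deposited table, where Snhg14 had -0.40 and 0.00168 and 4.94% of rows had an FDR under 0.05. Snhg14 and Snrpn were both past 0.05 with edgeR's quasi-likelihood test (13.7% of genes) and with DESeq2 (17.9%) on recovered reads.

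The call for Snrpn depended on the fit. It was lost with the neuron score as a covariate (log2 fold change 0.15, limma adjusted p-value 0.177), after a correction for GC content and length (0.16, 0.0748), and when all genes above 0 were tested (0.22, 0.0690). It was also lost without WT 1 (0.21, 0.0599), without cKO 9 (0.20, 0.0622) and without cKO 13 (0.20, 0.0578). The row holds only 131 to 438 reads per library. Snurf lies within Snrpn on the same strand and ends at the same base in the RefSeq table, and 27.3% of the Snrpn exon bases in GENCODE M21 are shared with Snurf or with the annotated gene Gm38393. How reads on such exons were counted is not given in the sources used here, so the share of such reads in the Snrpn row is not known.

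**Figure D1:**
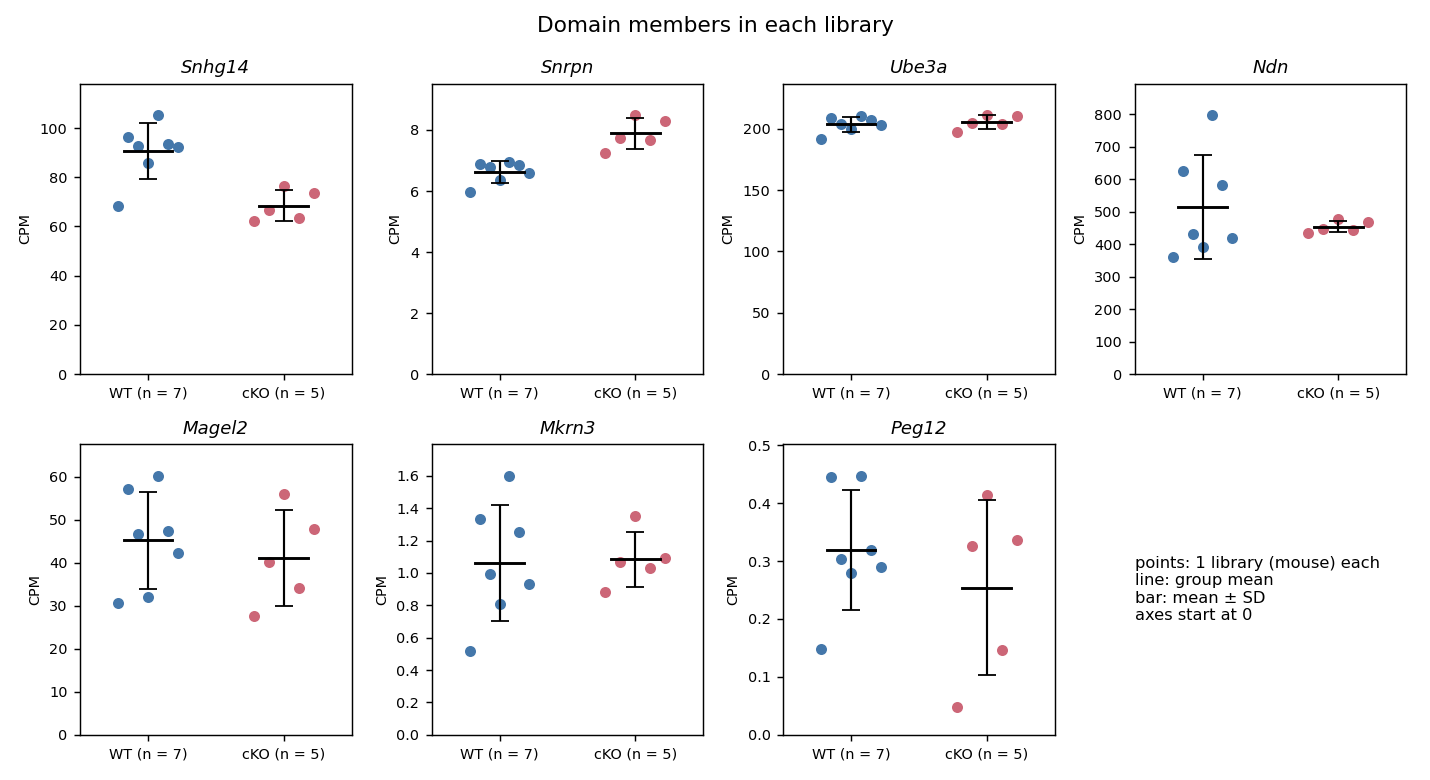
Level of each analysed domain member in CPM (vertical axes, linear and starting at 0) in the libraries labelled WT and cKO. Points are single mice, black lines are group means and bars are mean ± SD. Snhg14 was lower in cKO with WT 7 inside the cKO range, Snrpn did not overlap between the groups, and Ndn ranged from 360 to 798 CPM in WT but from 434 to 477 CPM in cKO.

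Ube3a, the ubiquitin ligase lost in Angelman syndrome, showed little spread. It was at 192, 204 and 211 CPM (lowest, median and highest) in the WT libraries and at 197, 204, 205, 211 and 211 CPM in cKO 8, 13, 12, 9 and 14. The ranges overlapped almost fully. The means were 204 ± 6.43 CPM (SD, n = 7) and 206 ± 5.67 CPM (SD, n = 5). The limma log2 fold change was 0.02 with a 95% interval from -0.06 to 0.09 (adjusted p-value 0.791). Exon bases of Ube3a shared with genes on the opposite strand (9330162G02Rik, Gm44560 and Snhg14 together) made up 27.3% in GENCODE M21. Of the Snhg14 exon bases 6.91% were shared with Ube3a. The library kit in the labels is not described there as keeping strand. Whether reads of Ube3a and of these genes were told apart on the bases they share is therefore not known. The sum of the Ube3a and Snhg14 rows had a log2 fold change of -0.10 ± 0.04 (SE), with a limma-adjusted p-value of 0.0937.

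The small nucleolar RNAs that Snhg14 hosts guide modification of other RNAs. Rows named Snord64, Snord107, Snord115 or Snord116 numbered 2, Snord64 and Snord116l12, and reached at most 0.433 CPM or 27 reads. Over the interval from Ube3a to Peg12 in RefSeq order there were 67 rows, of which 37 were small nucleolar RNAs with the same maximum. A further 11 were microRNA genes, with at most 0.493 CPM. None of these was tested. The libraries were made from messenger RNA, and how far they hold small RNAs is not known here. These low values are therefore not a measure of the small RNAs in the tissue.

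Long noncoding RNAs fill the interval between Snrpn and Ndn and were looked at after their values had been seen. With them, 11 of the 67 rows of the interval were tested and 4 were past the limma threshold, 2 higher and 2 lower, Snrpn and Snhg14 among them, where 14.1% of all tested genes passed. A230006K03Rik fell by limma, with an adjusted p-value of 0.0422 and a log2 fold change of -0.27 ± 0.08 (SE). Its means were 115 ± 13.2 CPM in WT and 95 ± 9.49 CPM in cKO (SD, n = 7 and 5). Its ranges overlapped, at 96.3 to 130 CPM and 83.6 to 109 CPM, and the call was lost in 8 of the 12 fits that left out 1 mouse, with adjusted p-values up to 0.1. With the neuron score as a covariate its log2 fold change was -0.10 (limma adjusted p-value 0.377).

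A230057D06Rik and A330076H08Rik had values in the same direction that missed the threshold. A230057D06Rik was at 12.2 ± 2.44 and 9.17 ± 1.68 CPM (log2 fold change -0.37, limma adjusted p-value 0.0745). A330076H08Rik was at 7.28 ± 1.0 and 5.82 ± 0.398 CPM (-0.27, 0.0565). A330076H08Rik was past it under 5 of the 12 other alternatives, edgeR and DESeq2 among them, and in 2 of the 12 fits that left out 1 mouse (without WT 5 and without WT 7). A230057D06Rik was past it with arrayWeights and with DESeq2. B230209E15Rik, which lies between A230006K03Rik and A230057D06Rik, was at 80.4 ± 3.39 and 83.7 ± 6.76 CPM (0.05, 0.502). Gm29729, next to Snrpn, rose from 12.2 ± 1.30 to 14.7 ± 0.772 CPM (0.25, 0.0310), and this call was lost in 7 of the 12 fits that left out 1 mouse. It was also lost with the thalamus score as a covariate (0.22, limma adjusted p-value 0.138) and when all genes above 0 were tested (0.25, 0.0570). The GC and length correction gave no value for it. Neighbouring transcripts of the interval thus had values of opposite sign.

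**Figure D2:**
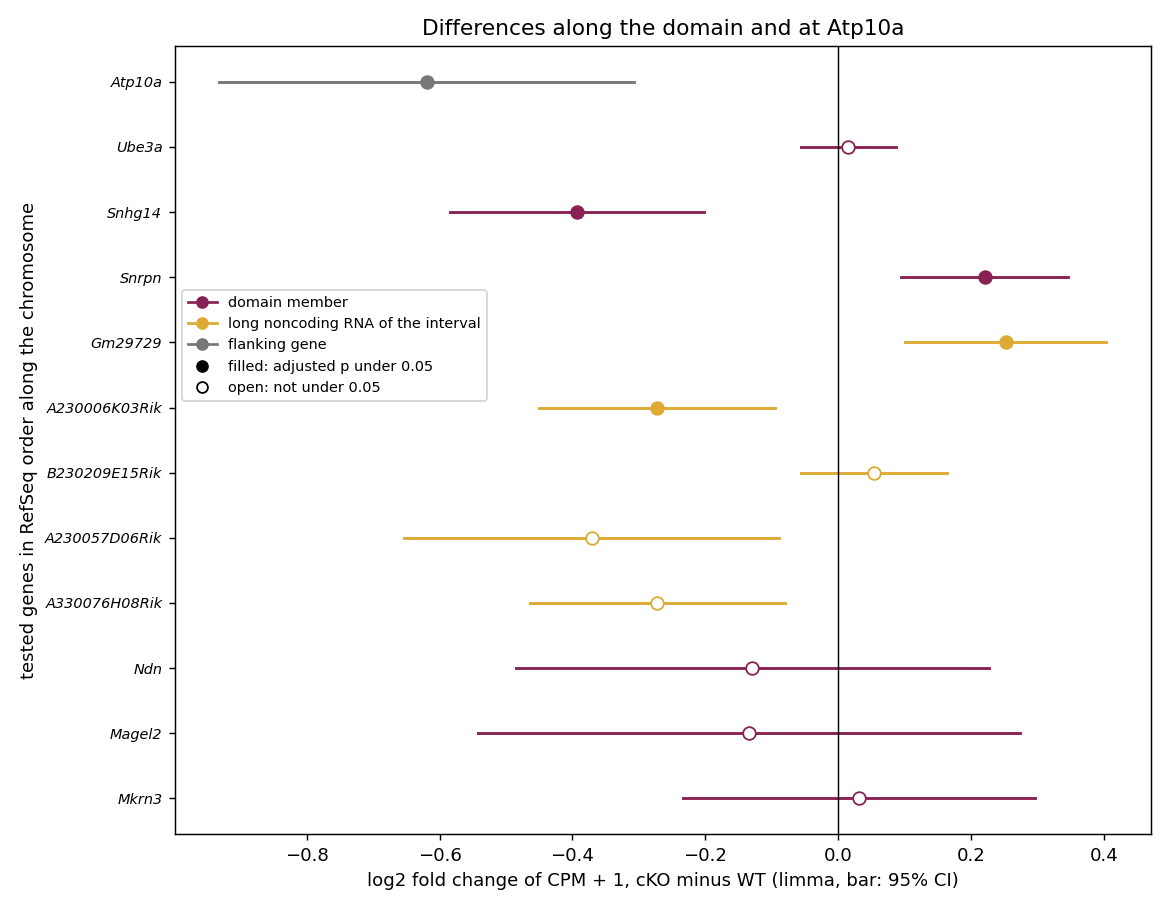
Log2 fold change of CPM + 1 (horizontal axis, cKO minus WT) for tested genes of the domain and for Atp10a next to it, in RefSeq order along the chromosome from top to bottom. Points are limma estimates, bars are 95% intervals, and filled points are past an adjusted p-value of 0.05. Atp10a, Snhg14 and A230006K03Rik lie to the left of 0, and Snrpn and Gm29729 to the right.

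Ndn encodes necdin, a MAGE family protein of postmitotic neurons, and was the most abundant member per exon length. Its WT libraries were at 360 CPM (lowest, WT 4), 430 CPM (median) and 798 CPM (highest, WT 6). Its cKO libraries were at 434, 442, 447, 467 and 477 CPM in mice 12, 14, 9, 13 and 8. The cKO values thus sat within a narrow band, with 4 WT libraries below all of them and 3 above. The SD was 30.9% of the mean in WT and 3.95% in cKO. The means were 515 ± 159 CPM (SD, n = 7) and 454 ± 17.9 CPM (SD, n = 5), with a limma log2 fold change of -0.13 ± 0.17 (SE), at an adjusted p-value of 0.639 and a 95% interval from -0.49 to 0.23. Leaving out 1 mouse moved it between -0.21 (without WT 4) and -0.015 (without WT 6), and arrayWeights gave -0.30, none past the threshold.

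Magel2 encodes another MAGE protein, which acts with a ubiquitin ligase in endosomal protein sorting. It was at 30.7 CPM (lowest, WT 4), 46.7 CPM (median) and 60.3 CPM (highest, WT 6) in the WT libraries. In the cKO libraries it was at 27.7, 34.1, 40.2, 47.8 and 55.9 CPM in mice 13, 12, 9, 14 and 8. Each group covered about the same range. The limma log2 fold change was -0.13 ± 0.19 (SE), at an adjusted p-value of 0.673, with a 95% interval from -0.54 to 0.27. Leaving out 1 mouse moved the Magel2 value between -0.25 (without cKO 8) and -0.0061 (without cKO 13), neither past the threshold. With the hypothalamus score as a covariate Magel2 was at -0.25 (limma adjusted p-value 0.102). With the neuron score its sign turned, at 0.32 (limma adjusted p-value 0.116), and that of Ndn likewise, at 0.13 (0.691).

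Magel2 varied with marker scores of the tissue. Over the 12 libraries its log2(CPM + 1) had a Pearson r of 0.80 and a Spearman's rho of 0.76 with the hypothalamus marker score (permutation p-values 0.00274 and 0.00519, or 0.0164 and 0.0373 adjusted over 18 relations of members with scores). Without the 2 libraries farthest from the median score r was 0.71, and within WT it was 0.91 (n = 7, exact permutation p-value 0.00694, or 0.0982 adjusted). With the neuron score Magel2 had an r of -0.80 and a rho of -0.82 (permutation p-values 0.00168 and 0.00182, or 0.0151 and 0.0328 adjusted). Without the 2 farthest libraries that r was -0.62, and within WT it was -0.89 (n = 7, exact permutation p-value 0.0109, or 0.0982 adjusted). Since Snrpn and Snhg14 differed between the groups, their relations with the neuron score are given within WT only. There r was 0.70 for Snrpn (exact permutation p-value 0.0722) and -0.70 for Snhg14 (0.0540), each 0.283 after adjustment. Correlations were run for the hypothalamus, thalamus and neuron scores only. Magel2 was lowest in cKO 13, WT 4, WT 5 and cKO 12, which had the highest oligodendrocyte lineage scores (8.40, 8.34, 8.40 and 8.34). It was highest in WT 6, WT 15 and cKO 8, which had the highest ependyma and choroid plexus scores (3.11, 3.28 and 3.23). These relations were not tested.

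**Figure D3:**
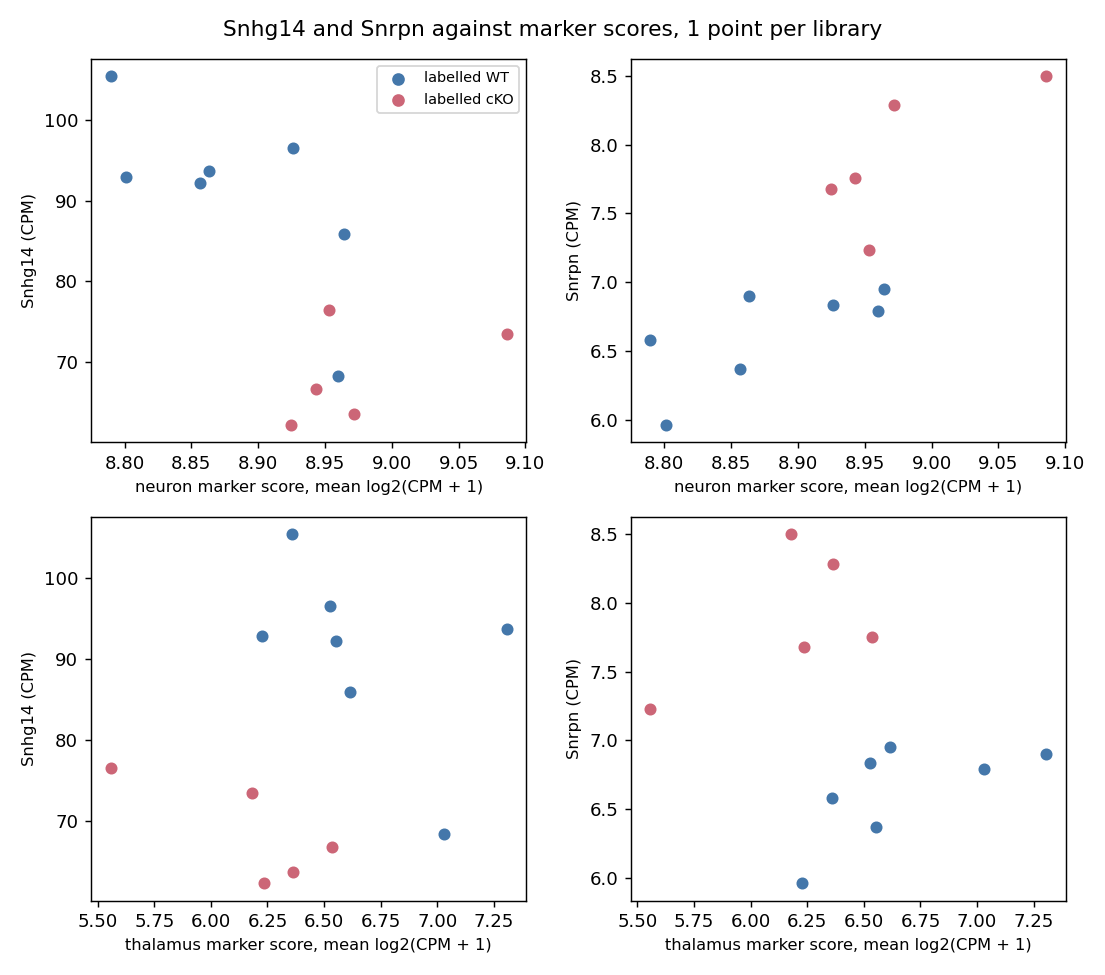
Snhg14 and Snrpn in CPM (vertical axes, not starting at 0) against the neuron marker score and the thalamus marker score (horizontal axes, mean log2(CPM + 1)), with a point for each library. The cKO libraries have neuron scores of 8.92 to 9.09, next to 8.79 to 8.96 in WT. WT 7 and WT 4 both have a neuron score of 8.96, with Snhg14 at 68.4 and 85.9 CPM.

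Mkrn3, a ubiquitin ligase known as a brake on the onset of puberty, was close to the CPM minimum. Its WT libraries were at 0.519 CPM (lowest, WT 7), 0.991 CPM (median) and 1.6 CPM (highest, WT 15). The cKO libraries were at 0.881, 1.03, 1.07, 1.09 and 1.35 CPM in mice 8, 9, 14, 13 and 12, inside the WT range. The limma log2 fold change was 0.03 ± 0.12 (SE), at an adjusted p-value of 0.892, on 12 to 86 reads per library. Peg12, an intronless gene of the FRAT family of Wnt pathway proteins, was at 0.148 to 0.448 CPM in WT and at 0.0475 to 0.414 CPM in cKO, or 1 to 22 reads. Its exact permutation p-value was 0.400, and cKO 13 held a single read, fewer than the 3 reads used as the floor.

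Levels of different members were set side by side per kilobase of merged GENCODE M21 exons. In the WT libraries Ndn was at 139 ± 43.1 CPM per kilobase (SD, n = 7), followed by Ube3a at 9.87 ± 0.312 and Magel2 at 9.76 ± 2.45, which did not differ beyond their spread. Snhg14 at 3.48 ± 0.439 and Snrpn at 3.07 ± 0.165 came next and also lay within the spread. Mkrn3 was at 0.417 ± 0.142 and Peg12 at 0.121 ± 0.0392. In the cKO libraries the order of Snhg14 and Snrpn was exchanged, at 2.63 ± 0.238 and 3.65 ± 0.234 CPM per kilobase (SD, n = 5). These levels depend on the annotated exons, which for Snhg14 come to 26.1 kilobases.

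Members did not vary together within the WT libraries to an extent that passed a test. Among the 15 pairs of the 6 tested members, the largest Pearson r in size was -0.68 for Snrpn with Magel2 (n = 7, rho -0.79, exact permutation p-values 0.0970 and 0.0480, or 0.590 and 0.360 adjusted). Without the 2 libraries farthest from the median of Snrpn that r was -0.79. Snhg14 and Ndn had an r of 0.64 and a rho of 0.79 (exact permutation p-values 0.104 and 0.0480, or 0.590 and 0.360 adjusted), and an r of 0.46 without 2 libraries. Ndn and Magel2 had an r of 0.66 and a rho of 0.68 (exact permutation p-values 0.118 and 0.11, or 0.590 and 0.548 adjusted), and an r of 0.44 without 2 libraries. Genes outside the interval most like Snhg14, by Pearson r of deviations from the group means over 12 libraries, were Nsmaf (0.89), Gm20751 (0.89) and 2810414N06Rik (0.89). Those most like Snrpn were Ramp3 (0.92), Klhdc7b (0.91) and Coro1b (0.90).

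Flanking genes, mostly read from both alleles, were listed as 16 names. Testing covered 14 of them, and 1 passed by limma (7.14%, with a median log2 fold change of -0.01), next to 14.1% of all tested genes. That gene was Atp10a, a phospholipid flippase next to Ube3a. It was at 17.0 CPM (lowest, WT 5), 22.6 CPM (median) and 35.3 CPM (highest, WT 11) in the WT libraries and at 13, 14.4, 14.5, 14.8 and 16.1 CPM in cKO 12, 8, 13, 14 and 9. Its groups did not overlap, which held for 6.73% of tested genes, 3.2% with cKO lower. By limma Atp10a had a log2 fold change of -0.62 ± 0.15 (SE) with an adjusted p-value of 0.0160. With the thalamus score as a covariate it was -0.38 (adjusted p-value 0.115), and with the neuron score -0.56 (0.0767).

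Genes that maintain imprints were listed because they act on this domain's methylation. Of 17 tested, 3 passed, all of them lower (17.6% called, with a median log2 fold change of -0.04, next to 14.1% and 0.01 over all tested genes). Zfp57, a zinc finger protein that holds methylation at imprinted regions, fell from 38.5 ± 3.99 to 29.2 ± 1.22 CPM (-0.38, limma adjusted p-value 0.00586). Its groups did not overlap, as for 6.73% of tested genes. Zfp445, which has the same role, fell by 0.24 on the log2 scale (limma adjusted p-value 0.0139), and the methyltransferase Dnmt3a by 0.22 (0.0245). The call for Dnmt3a was lost with the thalamus score (-0.20, limma adjusted p-value 0.101), after the GC and length correction (-0.10, 0.127), with the neuron score (-0.14, 0.175) and without WT 1, cKO 13 or cKO 14. That for Zfp445 was lost with the neuron score (-0.20, limma adjusted p-value 0.0736).

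Protein partners of the members were compared through 3 further lists. Over all tested genes 14.1% were called by limma, and the groups did not overlap for 6.73%. Of 20 MAGE genes and partners of necdin and MAGEL2, 1 was higher and 1 lower (10% called, median 0.04). These were Magee1, another MAGE gene (0.19, limma adjusted p-value 0.0281), and Trp53 (-0.15, 0.0487). The call for Trp53 was lost in 11 of the 12 fits that left out 1 mouse and under 6 of the 12 other alternatives, and that for Magee1 in 5 and 3 of them. Of 12 partners and targets of UBE3A, 1 was higher and 1 lower (16.7% called, median -0.04). Ube2l3, which hands ubiquitin to UBE3A, rose from 111 ± 3.37 to 127 ± 5.40 CPM (0.19, limma adjusted p-value 0.00772) with no overlap, and the potassium channel gene Kcnma1 was at -0.17 (0.0422). The call for Kcnma1 was lost in 9 of the 12 fits that left out 1 mouse, with the thalamus score (-0.094, limma adjusted p-value 0.289), after the GC and length correction (-0.095, 0.244) and under 2 other alternatives.

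A list of 13 genes covered the Sm ring and the U1 particle, complexes SmN joins, and also held Snrpa1, Snrpb2 and Smn1. Of these 13 genes 1 passed, and it was lower (7.69% called, median 0.07, next to 14.1% called over all tested genes). That gene was Snrnp70, the U1-specific protein, which fell from 390 ± 42.6 to 290 ± 13.5 CPM (-0.42, limma adjusted p-value 0.00383). Its groups did not overlap, as for 6.73% of tested genes. Snrpb, the close relative of Snrpn used in most tissues, was named after its values were seen. It was at 54.6 ± 1.80 and 51.8 ± 3.16 CPM (-0.08, limma adjusted p-value 0.246).

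Hypothalamic hormone and convertase genes tied to loss of the domain were tested for 14 of 16 listed. The serotonin receptor Htr2c, whose RNA is a target of Snord115, was the 1 gene past the limma threshold, at -0.23 with an adjusted p-value of 0.0206 (7.14% called, median -0.12). Sst, Pomc, Pcsk1 and Nhlh2 were chosen after their values were seen. Sst was at 69.5 ± 19.6 and 46.7 ± 7.96 CPM (-0.53, limma adjusted p-value 0.0602). In the authors' deposited table it had an FDR of 0.0294. Pomc was at 7.79 ± 7.81 and 37.1 ± 64.6 CPM (1.16, limma adjusted p-value 0.311), a wide spread in cKO. Pcsk1, a prohormone convertase, was at 56.0 ± 5.83 and 61.8 ± 4.82 CPM (0.14, limma adjusted p-value 0.203). The transcription factor Nhlh2 was at 16.3 ± 2.12 and 16.1 ± 2.64 CPM (-0.02, 0.918). Other imprinted domains were looked at for comparison. In the Peg3 and Zim1 domain 1 of 3 tested genes passed the limma threshold, and it was lower (Zim1, 33.3% called). In the Dlk1 to Dio3 domain 2 of 5 passed, both lower (Meg3 and Rtl1, 40% called). Of all tested genes 14.1% passed, 7.6% lower. The call for Rtl1 was lost in 6 of the 12 fits that left out 1 mouse and under 4 of the 12 other alternatives, and that for Meg3 with the neuron score (-0.35, limma adjusted p-value 0.0503). The difference between domains was not tested.

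**Figure D4:**
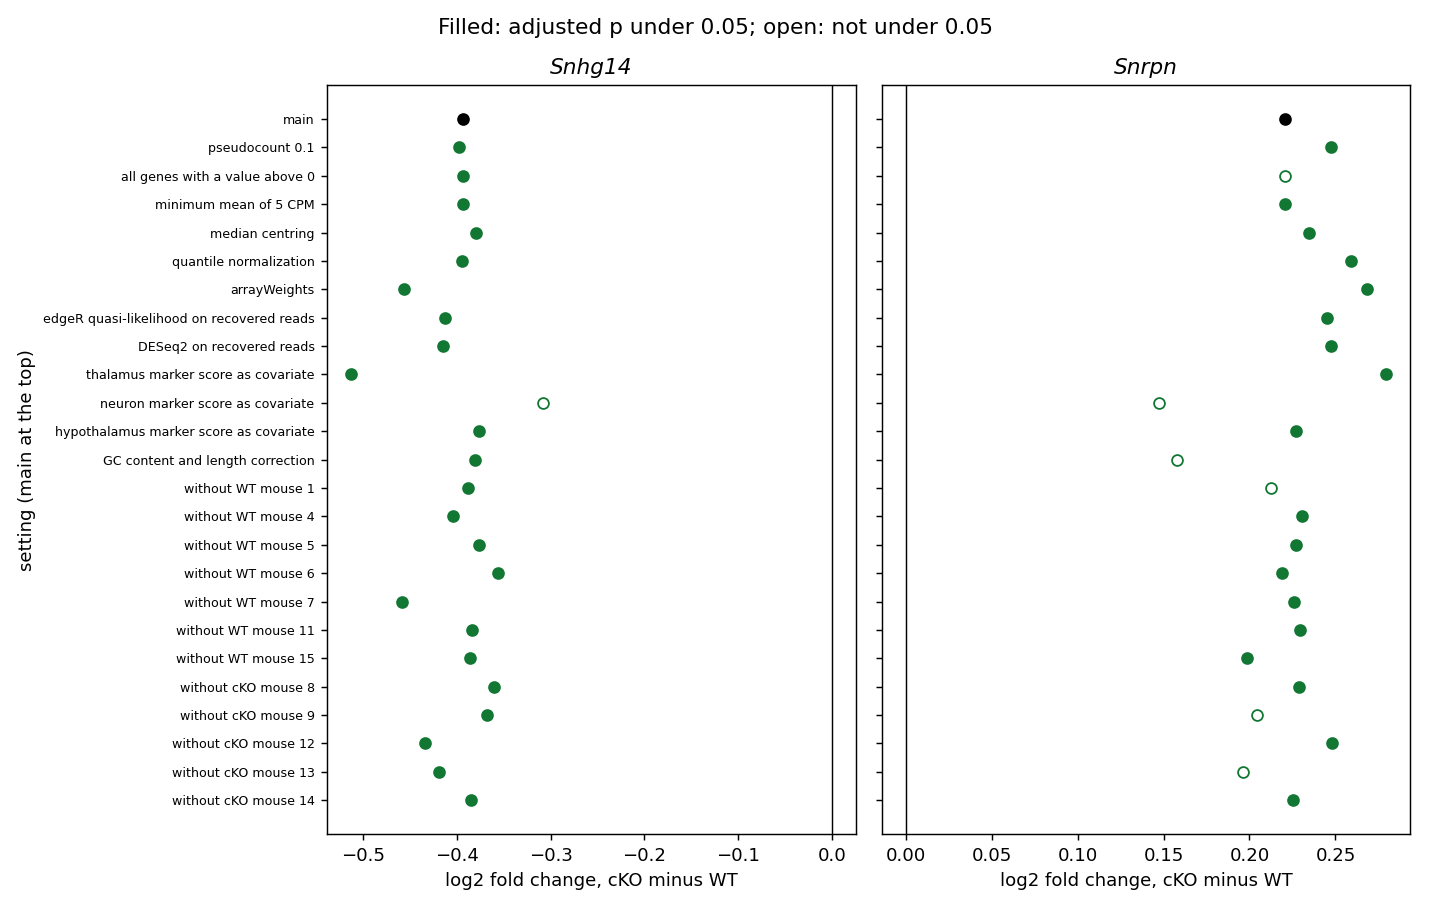
Log2 fold change (horizontal axes, cKO minus WT) of Snhg14 and Snrpn in the limma fit (black, top) and under each alternative (green), including fits without a single mouse. Filled points have an adjusted p-value under 0.05. Snhg14 lies between -0.51 and -0.31 with 1 open point, and Snrpn between 0.15 and 0.28 with 6 open points.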

How the data were processed

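RNA sequencing libraries were made from messenger RNA, and the NEBNext Ultra II RNA kit was used, as the labels' protocols state. STAR 2.7.9a, Subread, featureCounts, SAMtools, bcl2fastq and FastQC 0.11.9 are named in the submitters' processing notes. Build, annotation, strand setting and the handling of overlapping genes are not given in the sources used here. Of the table's symbols, 96.2% are in the RefSeq table of GRCm38.p6.

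The authors deposited normalized CPM and a test table with log2 fold changes, log2 mean CPM, p-values and FDR. All CPM values were whole multiples of a step (tolerance 0.01), so reads were recovered. The main test was limma 3.58.1 (R 4.3.3, eBayes with trend) on log2(CPM + 1), which understates changes of low genes, for 15359 genes averaging 1 CPM or more, Benjamini-Hochberg adjusted over all of them with a threshold of 0.05. Single values had two-sided exact permutation tests over 792 splits. The limma fit was tested on simulated data. The labels number the samples without stating separate animals, which is assumed here. Alternatives were a pseudocount of 0.1, other filters (all genes above 0, or a mean of 5 CPM), median centring, quantile normalization, arrayWeights, edgeR 4.0.16 and DESeq2 1.42.0 on recovered reads, marker scores as covariates, a GC and length correction (splines with 4 degrees of freedom, 94.5% of genes matched) and leaving out each mouse. The hypothalamus score and the interval from Ube3a to Peg12 were added after seeing the data.

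A level of 3 reads was 0.0436 to 0.178 CPM, which covers counting error only. The members and gene lists were chosen with earlier results of these data known. Named list genes were up to 4 per list past the threshold with the smallest adjusted p-values (others are marked as chosen after their values were seen), and genes of like pattern the 3 with the highest Pearson r for each member past it. Unused columns numbered 0. Windows were aligned with Biopython 1.88. The result of another flanking gene is not reported here.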

Additional observations from a re-analysis of the deposited data

How the results depend on the processing

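Snhg14 kept its direction under 12 alternatives (-0.51 to -0.31) and in the 12 fits that left out 1 mouse (-0.46 to -0.36), and Snrpn likewise (0.15 to 0.28 and 0.20 to 0.25). Members past the limma threshold numbered 2, and 1 with all genes above 0, 1 after the GC and length correction, 0 with the neuron score (3 at an unadjusted limma p-value under 0.05, while edgeR's quasi-likelihood test and DESeq2, run without that score, gave 2 each), and 1 to 2 on leaving out a mouse (1 without WT 1, cKO 9 or cKO 13). Interval genes past it numbered 4, and 1 with all genes above 0, 7 with arrayWeights, 1 with the neuron score, and 1 to 5 on leaving out a mouse. All genes past it numbered 2172, and 5126 with arrayWeights, 993 with the thalamus score, 1268 with the neuron score, and 1161 (without WT 1) to 2309 on leaving out a mouse. Smc3 ran from 0.65 to 0.74, and from 0.64 to 0.71 without a mouse. Signs turned for Mkrn3 with arrayWeights (-0.089), the thalamus score (-0.11), without WT 7 and without cKO 12 (-0.039 to 0.091 over the mice left out). They also turned with the neuron score for Ndn (0.13) and Magel2 (0.32), and for B230209E15Rik after the GC and length correction (-0.037). None of these was past the threshold, and the cause was not tested. For 18 other named genes 431 values were computed, of which 79 lost the threshold, 10 gained it, 1 changed sign and 341 did none of these. No paired analysis was possible because the groups have no mouse number in common. A sum of Snrpn and Snurf was not run, and the 5 CPM minimum left no value for Mkrn3. Counts of few reads limit Mkrn3 and Peg12.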

Other observations

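The values here were looked at after the data had been seen. Magel2 had close companions across the libraries. By Pearson r of deviations from the group means over 12 libraries, the genes most like it were Cfap73 (r 0.98, rho 0.98), Fam216b (0.98, 0.97) and Spag16 (0.97, 0.99). The limma log2 fold changes were -0.09 for Cfap73, 0.05 for Fam216b and 0.06 for Spag16, and none was past the threshold (adjusted p-values 0.757, 0.917 and 0.872). The genes most like Ube3a were Apc (0.94), Rab3c (0.94) and Atf6 (0.92), and those most like Ndn were Fbxl6 (0.94), Map4k1 (0.91) and Txndc11 (0.90). For Mkrn3 they were 4831440E17Rik (0.91), Vcan (0.90) and Echdc1 (0.88). These are the 3 highest correlations of each member among all tested genes outside the domain, and they are descriptions only.

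A Dixon test, which sets the gap next to the outermost library against the range of its group, was run for Smc3 and the 7 analysed members. It flagged no library in the 16 groups of values examined, where chance gives 0.8. With 7 or 5 libraries per group only a large gap is flagged. In Snhg14, WT 7 at 68.4 CPM was not flagged, with WT 4 the next WT library at 85.9 CPM.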
